A study of Sus scrofa with 8 samples.

Results

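The ligands and receptors of the vascular endothelial growth factor (VEGF) and angiopoietin systems were measured in hearts of 6-month-old male pigs of 2 breeds at 2 altitudes. The members were the rows of the expression table named VEGFA, VEGFB, VEGFC, PGF, FLT1, KDR, FLT4, ANGPT1, ANGPT2 and TEK. All 10 were found, of 18975 genes listed. TH were Tibetan pigs kept in the highlands at 3000 m and TL were Tibetan pigs kept in the lowlands at 100 m. YH and YL were Yorkshire pigs, a commercial breed, at the same highland and lowland sites. Each group had 2 libraries (TH1 and TH2, and so on), and each library was made from pooled RNA of 4 pigs, so that the spread between libraries is a spread between pools. The highland and lowland pigs lived at different places, and altitude cannot be told apart from other differences between the sites. Levels are FPKM, the fragments of a gene divided by transcript length and by the depth of the library, which are scaled for gene length and can be set side by side between genes.

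VEGF ligands are secreted proteins that act on receptor tyrosine kinases of endothelial cells, the cells that line blood vessels. VEGFA drives the growth and permeability of vessels mainly through KDR (VEGF receptor 2). FLT1 (VEGF receptor 1) binds VEGFA, VEGFB and PGF, and is often described as a decoy because it signals weakly. VEGFC and its receptor FLT4 (VEGF receptor 3) are best known for the growth of lymphatic vessels. TEK (Tie2) is the receptor of the angiopoietins: ANGPT1, made by cells around the vessel, activates it and keeps vessels stable, and ANGPT2, made by endothelial cells, opposes ANGPT1 in many settings. VEGFA is a textbook target of hypoxia-inducible factor (HIF), and VEGFB is abundant in heart muscle.

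The libraries held 15687000 (TH2) to 26723000 (TH1) fragments on genes. Cardiomyocyte markers summed to between 13410 FPKM in YL2 and 36020 FPKM in TH1 over the 9 of 12 listed genes that the table names, led by TNNI3, MYL3, TNNT2 and ACTC1. YL2 stood apart, because 14 kidney markers summed to 5341 FPKM in it and to between 2.27 and 19.3 FPKM in the other 7 libraries. FXYD2, UMOD, MIOX and FBP1 led this list. UMOD, a urinary protein made in kidney tubules, was 947.4 FPKM in YL2 and 0 to 0.8113 FPKM elsewhere. Adipocyte markers (CIDEC, PLIN1 and LEP) summed to at most 3.403 FPKM in any library. TH1 stood apart in endothelial genes. VWF, the clotting factor stored by endothelial cells, was 1.07 FPKM in TH1 and 6.42 to 25.93 FPKM elsewhere, whereas PECAM1, an endothelial adhesion molecule, was highest in TH1 at 96.78 FPKM. Mitochondrially encoded genes took 87.6% of all FPKM in TH1 and 57.71% to 80.32% in the other 7 libraries. Atrial markers, led by MYL7, NPPA, SLN and MYL4, summed to 6616 and 5383 FPKM in TH1 and TH2 and to between 403.1 and 2612 FPKM in the other 6 libraries. The part of these library differences in the values that follow was not tested. Values without TH1 or YL2 stand beside the results they bear on most.

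The members differed widely in level. Mean levels over the 8 libraries ran from VEGFB at 130 FPKM and VEGFA at 66.79 FPKM, through KDR at 12.84, TEK at 8.58 and FLT1 at 6.812 FPKM, to VEGFC at 2.056, PGF at 1.773, ANGPT2 at 1.606, FLT4 at 0.7538 and ANGPT1 at 0.3217 FPKM. VEGFB was thus above 97.31% of all listed genes by mean level, and ANGPT1 above 26.8%. In each of the 8 libraries VEGFB exceeded VEGFA, VEGFA exceeded KDR, KDR exceeded TEK and TEK exceeded FLT1. The range of VEGFA did not overlap that of KDR, but every other pair of neighbours in this order had overlapping ranges. VEGFC exceeded PGF in 6 of 8 libraries and PGF exceeded ANGPT2 in 5 of 8, so the order of these 3 genes was not separated by their spread.

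**Figure D1:**
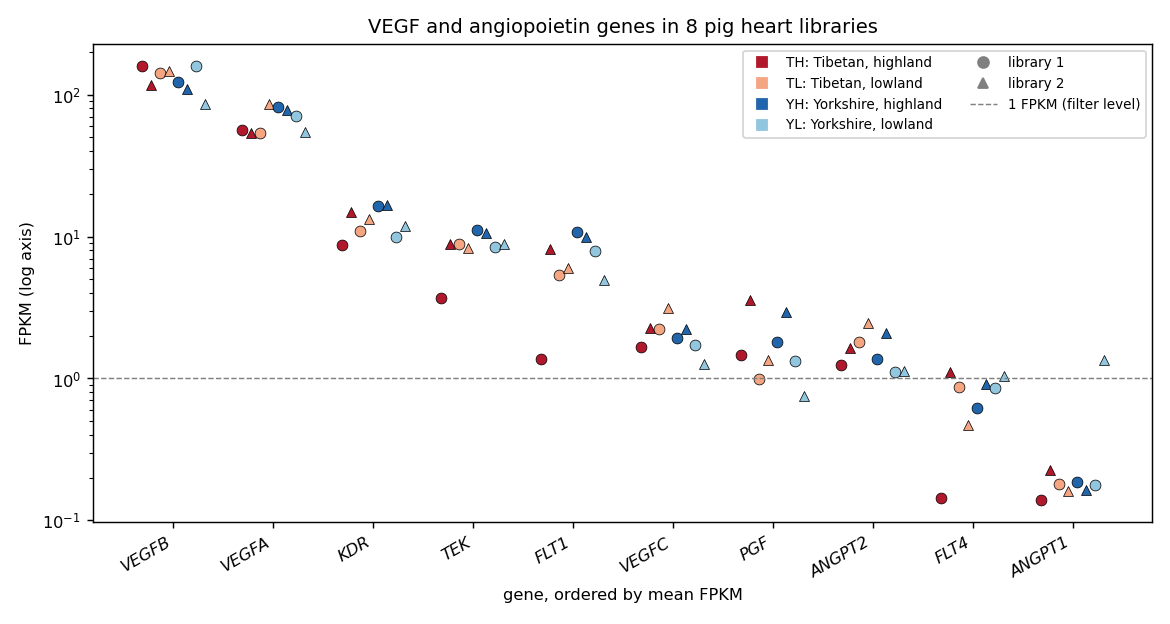
FPKM of the 10 genes (log axis) in each of the 8 libraries, coloured by group, with circles for library 1 and triangles for library 2 of a group. VEGFB and VEGFA lie well above the receptors, TH1 is the lowest point for KDR, TEK, FLT1, FLT4 and ANGPT1, and ANGPT1 exceeds 1 FPKM in YL2 only.

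VEGFB, on chromosome 2 (chr2:6939769-6942952 of Sscrofa10.2, ENSSSCG00000013037), was the most abundant ligand. It measured 158.8 and 116.1 FPKM in the pools of TH, 141.3 and 146.5 in those of TL, 122.9 and 109.2 in those of YH, and 159.6 and 85.41 in those of YL. The YL libraries were both the highest and the lowest of the 8, so that the spread within YL covered every other value. No comparison separated the groups in VEGFB, and its breed difference in log2(FPKM + 1) was 0.26 (SE 0.24; 95% interval -0.31 to 0.83). It was 0.15 without TH1, 0.04 without YL2 and -0.07 without both, so its direction rested on those libraries.

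VEGFA, on chromosome 7 (chr7:44459902-44474467, ENSSSCG00000001695), measured 56.43 and 53.58 FPKM in the pools of TH, 53.28 and 86.46 in those of TL, 81.98 and 77.4 in those of YH, and 71.16 and 54.04 in those of YL. TL2, YH1 and YH2 were the highest libraries, and the TL libraries lay at the top and the bottom of the whole range. Both TH libraries were below both YH libraries, with means of 55 and 79.69 FPKM. The difference was -0.53 on the log2 scale (SE 0.29; 95% interval -1.21 to 0.15) and -0.56 without TH1, with an adjusted p of 0.408 by limma.

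VEGFC, on chromosome 15 (chr15:44742345-44773322, ENSSSCG00000015770), was counted from 61 to 163 fragments per library. Its levels were 1.659 and 2.282 FPKM in the pools of TH, 2.214 and 3.144 in those of TL, 1.925 and 2.226 in those of YH, and 1.723 and 1.27 in those of YL. TL2 was the highest library and YL2 the lowest. Both TL libraries were above both YL libraries, by 0.55 on the log2 scale (SE 0.24; 0.42 without YL2), with an adjusted p of 0.564.

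PGF, placental growth factor, lies on chromosome 7 (chr7:103994327-104006524, ENSSSCG00000002376) and was counted from only 10 to 36 fragments per library. It measured 1.474 and 3.564 FPKM in the pools of TH, 0.9924 and 1.358 in those of TL, 1.794 and 2.916 in those of YH, and 1.334 and 0.7555 in those of YL. All 4 highland libraries were above all 4 lowland libraries, although TH1 at 1.474 FPKM was close to TL2 at 1.358 FPKM. The mean was 2.437 FPKM at high and 1.11 FPKM at low altitude. The altitude difference was 0.67 on the log2 scale (SE 0.25; 95% interval 0.08 to 1.26), with an unadjusted p of 0.0319 and an adjusted p of 0.623 by limma, so it did not pass. Leaving out 1 library gave 0.45 (without TH2) to 0.89 (without TH1), and scaling all libraries to an equal FPKM sum, which shifted the median of all genes to -0.17, gave 0.37. Of all 11913 genes tested, 1.63% had 4 highland libraries above the 4 lowland ones, and 7.22% had an unadjusted p under 0.05 in this comparison.

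VEGFA and VEGFB made up nearly all of the measured ligand RNA. Of the summed FPKM of VEGFA, VEGFB, VEGFC and PGF, VEGFB took 56.9% to 72.7% and VEGFA 25.8% to 40.4%. VEGFC took 0.737% to 1.32%, and PGF 0.502% to 2.03%. The ratio of VEGFA to VEGFB was 0.355 and 0.461 in the pools of TH, 0.377 and 0.59 in those of TL, 0.667 and 0.709 in those of YH, and 0.446 and 0.633 in those of YL. The YH libraries had the 2 highest ratios and lay above both TH libraries, while TL and YL overlapped.

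KDR, on chromosome 8 (chr8:43919342-43966974, ENSSSCG00000008844), was the most abundant receptor. Its levels were 8.74 and 14.99 FPKM in the pools of TH, 10.97 and 13.23 in those of TL, 16.28 and 16.73 in those of YH, and 9.871 and 11.89 in those of YL. Both YH libraries were above the other 6. YH exceeded YL by 0.56 on the log2 scale (SE 0.28; 95% interval -0.10 to 1.23; 0.69 without YL2), with an adjusted p of 0.784.

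FLT1, on chromosome 11 (chr11:5316369-5455380, ENSSSCG00000009320), had one of the widest spreads of the members. It measured 1.38 and 8.174 FPKM in the pools of TH, 5.358 and 5.975 in those of TL, 10.73 and 9.994 in those of YH, and 7.921 and 4.961 in those of YL. Both YH libraries were again above the other 6, and TH1 was 3.594-fold below the next lowest library. TH1 had 107 FLT1 fragments, and the other 7 libraries had 467 to 973. The mean of TH was 4.777 FPKM (SD 4.804, n = 2) and that of YH 10.36 FPKM (SD 0.5234, n = 2). The TH to YH difference was -1.28 on the log2 scale (SE 0.58; 95% interval -2.66 to 0.09), with an adjusted p of 0.338 by limma. It was -2.25 without TH2 and -0.31 (SE 0.29) without TH1, with an adjusted p of 0.853, so most of its size came with that library.

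FLT4, on chromosome 2 (chr2:79479772-79502309, ENSSSCG00000014007), was close to the filter level. It measured 0.1437 and 1.114 FPKM in the pools of TH, 0.8687 and 0.4694 in those of TL, 0.622 and 0.9165 in those of YH, and 0.8626 and 1.033 in those of YL. TH1 had 13 fragments and the other libraries 61 to 156. The groups overlapped in every pairwise comparison, with differences between -0.23 and -0.09 on the log2 scale. Without TH1 the values that involve TH turned positive, to 0.26 in TH vs. YH and 0.35 in TH vs. TL.

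Among the VEGF receptors, KDR took 52.9% to 85.2% of the summed FPKM, FLT1 13.4% to 42.5% and FLT4 1.4% to 5.78%. The FLT1 to KDR ratio was 0.158 and 0.545 in the pools of TH, 0.488 and 0.452 in those of TL, 0.659 and 0.598 in those of YH, and 0.802 and 0.417 in those of YL. Outside TH1 it stayed between 0.417 and 0.802, and the YL libraries held both of these ends. The summed ligands were 21.3 times the summed receptors in TH1 and 6.94 to 12.5 times in the other 7 libraries.

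**Figure D2:**
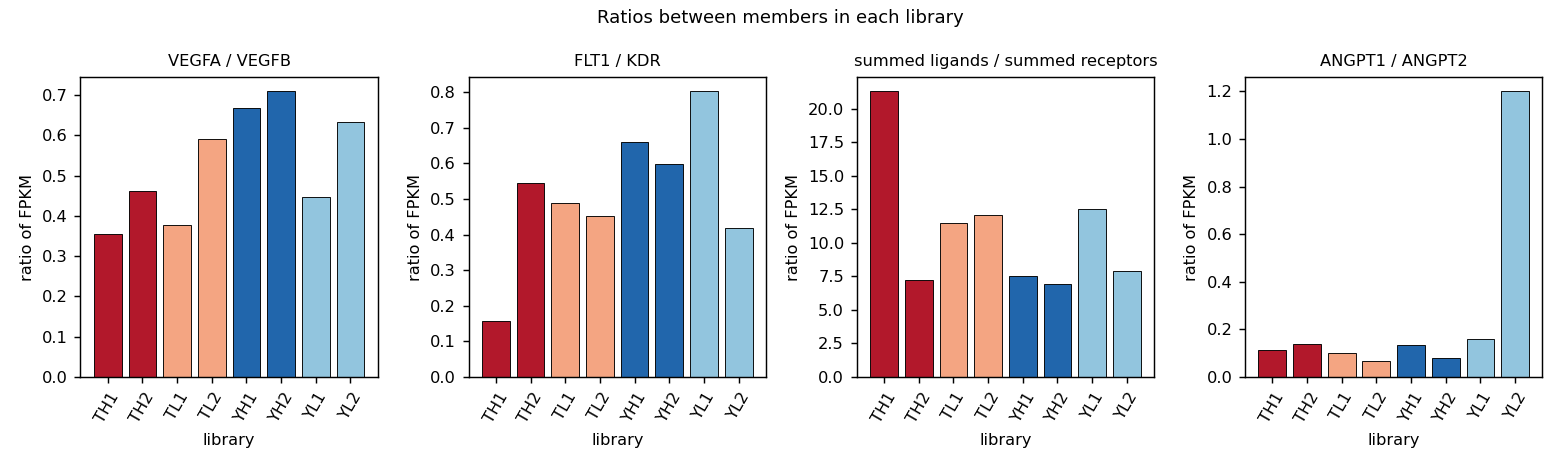
Ratios of FPKM in each library, from left to right VEGFA to VEGFB, FLT1 to KDR, the 4 summed VEGF ligands to the 3 summed VEGF receptors, and ANGPT1 to ANGPT2; bars start at 0 and are coloured by group. TH1 is lowest in FLT1 to KDR at 0.158 and highest in ligands to receptors at 21.3, and YL2 is highest in ANGPT1 to ANGPT2 at 1.2.

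TEK, on chromosome 1 (chr1:218224161-218500245, ENSSSCG00000005122), was steady outside TH1. Its levels were 3.698 and 8.871 FPKM in the pools of TH, 8.925 and 8.27 in those of TL, 11.06 and 10.56 in those of YH, and 8.37 and 8.888 in those of YL. The YH libraries were the highest, TH1 was the lowest by 2.236-fold, and the remaining 5 libraries lay between 8.27 and 8.925 FPKM. The TH to YH difference was -0.79 (SE 0.34; 95% interval -1.61 to 0.02) and was -0.26 (SE 0.18) without TH1 and -1.33 without TH2. Its adjusted p of 0.314 was the lowest of all member tests.

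ANGPT2, on chromosome 15 (chr15:42662742-42787678, ENSSSCG00000015753), was measured from 99 to 323 fragments per library. It was 1.24 and 1.643 FPKM in the pools of TH, 1.807 and 2.453 in those of TL, 1.379 and 2.095 in those of YH, and 1.114 and 1.12 in those of YL. The YL libraries were the lowest and nearly equal, and TL2 was the highest. Both TL libraries were above both YL libraries by 0.56 on the log2 scale (SE 0.23), with an adjusted p of 0.555, and the value was again 0.56 without YL2. Both TH libraries were below both TL libraries, by -0.36 (SE 0.23; -0.24 without TH1 and -0.21 without TL2). Both YH libraries were above both YL libraries, by 0.36 (SE 0.23), which was 0.17 without YH2 and 0.55 without YH1.

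ANGPT1, on chromosome 4 (chr4:32646873-32751649, ENSSSCG00000006035), was near the limit of detection in 7 libraries, at 0.1384 to 0.2253 FPKM from 3 or 4 fragments each. In YL2, the library with the kidney genes, it was 1.339 FPKM from 40 fragments. ANGPT1 did not reach 1 FPKM in 2 libraries and was not tested. Its ratio to ANGPT2 was 0.0659 to 0.159 in the other 7 libraries and 1.2 in YL2. At 3 or 4 fragments, differences in ANGPT1 between the other 7 libraries were not detectable at this depth.

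In none of the 7 comparisons did a member pass the test. To count as called, a gene needed an adjusted p under 0.01 together with a difference over 1 in log2(FPKM + 1), in limma fitted across the 11913 genes with at least 1 FPKM in 2 libraries. Of the 63 tests (9 members in 4 pairwise comparisons, the breed and altitude effects, and their interaction) 0 were called, and 1, the altitude effect of PGF, had an unadjusted p under 0.05. Calls were rare among all genes too. They made up 0.0336% of genes in TH vs. YH, 0.00839% in TL vs. YL, 0.0504% in TH vs. TL, 0% in YH vs. YL, 0.0504% for breed, 0.0336% for altitude and 0.0336% for the interaction. An unadjusted p under 0.05 was found for 16.2%, 8.94%, 11.3%, 5.97%, 13.5%, 7.22% and 10.9% of genes in the same order. The standard errors of the pairwise differences ran from 0.23 for ANGPT2 to 0.58 for FLT1, and the FLT1 interval reached past 1 or -1 in each of the 4 pairwise comparisons. With 2 pools per group the threshold is hard to reach, so the lack of calls does not show that the members were unchanged.

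In highlanders, Tibetan against Yorkshire (TH vs. YH), the members apart between the groups, meaning that their libraries did not overlap, were VEGFA and receptor genes. VEGFA, KDR, FLT1 and TEK had both TH libraries below both YH libraries, so 4 of 9 tested members were lower without overlap, against 27.3% of all genes (52.5% in either direction). The KDR difference was -0.49 (SE 0.28; -0.13 without TH1, -0.85 without TH2). The other 5 members overlapped, and their differences ran from -0.18 for FLT4 to 0.23 for VEGFB (0.26 and 0.00 without TH1). The median difference was -0.18 over the 9 members and -0.03 over all genes, and without TH1 it was -0.04 and -0.01. These 4 differences were negative under all alternative settings tried, also without TH1. Markers of other cells were apart here too, and their part was not tested. All 5 atrial markers were higher in TH (median 2.34). Of 8 blood cell markers 4 were apart and higher in TH, HBB and HBA among them, and 3 were apart and lower. The lower ones were the leukocyte genes PTPRC (-1.60, adjusted p = 0.0601 by limma), CD3E (-1.97, adjusted p = 0.0584) and ITGAM (-0.85).

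In lowlanders (TL vs. YL), VEGFC and ANGPT2 were the only members with both Tibetan libraries above both Yorkshire libraries, and none lay below. That is 2 of 9 members, against 23.8% of all genes (41.5% in either direction). KDR, FLT1 and TEK had differences of 0.14, -0.13 and -0.01, with groups that overlapped, and without YL2 these were 0.26, -0.42 and 0.03. The FLT1 interval of -1.51 to 1.25 was wide, and that of KDR was -0.52 to 0.80.

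In Tibetan pigs between altitudes (TH vs. TL), PGF had both highland libraries above both lowland libraries, by 0.63 (SE 0.35). The size rested on TH2, since it was 1.07 without TH1 and 0.19 without TH2. ANGPT2, with the values given above, lay apart the other way. That is 2 of 9 members, against 48.5% of all genes apart in either direction. The FLT1 difference was -0.51 with all libraries and 0.46 without TH1, and that of TEK was -0.49 and 0.04. All 4 receptor genes were negative with all libraries and positive without TH1, since KDR went from -0.06 to 0.29 and FLT4 from -0.09 to 0.35. With all libraries 8 of 9 members were negative, and without TH1 4 of 9. Cardiomyocyte markers were negative for 7 of 9 (median -0.45; 9 of 9 and -0.69 without TH1), with 6 apart and lower in TH, and 4 of 5 atrial markers were positive (median 1.01). Endothelial markers were negative for 8 of 15 (median -0.18), and without TH1 for 6 of 15 (median 0.08). The part of these markers in the member values was not tested.

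In Yorkshire pigs between altitudes (YH vs. YL), 7 of 9 members had both highland libraries above both lowland libraries, and none lay below. Of all genes, 21.9% did so, and 36.3% were apart in either direction. The 7 were the ligands VEGFA (0.36, SE 0.29), VEGFC (0.31, SE 0.24) and PGF (0.71, SE 0.35), the receptors FLT1 (0.64, SE 0.58), KDR and TEK (0.29, SE 0.34), and ANGPT2. VEGFB and FLT4 overlapped, at -0.01 and -0.14 (-0.46 and -0.08 without YL2). All 7 differences stayed positive in every alternative setting, including the fits without YL2, where VEGFA was 0.16, VEGFC 0.17, PGF 0.50 (0.46 without YH2), FLT1 0.35, KDR 0.69, ANGPT2 0.36 and TEK 0.33. None passed the test, and the lowest adjusted p was 0.784, for PGF, KDR and ANGPT2. The YH libraries that stood high for KDR, FLT1 and TEK also enter TH vs. YH. The median was 0.36 over the 9 members and 0.03 over all genes (0.33 and 0.06 without YL2). YL2 carried the kidney genes and had the lowest level of 9 of 15 endothelial markers, and its part in these differences was not tested. Blood cell markers moved with the members here, with 7 of 8 apart and higher in YH (median 0.77; 0.85 without YL2). CD3E, a T cell gene, was 6.604 and 9.081 FPKM in YH against 2.13 and 2.841 in YL.

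**Figure D3:**
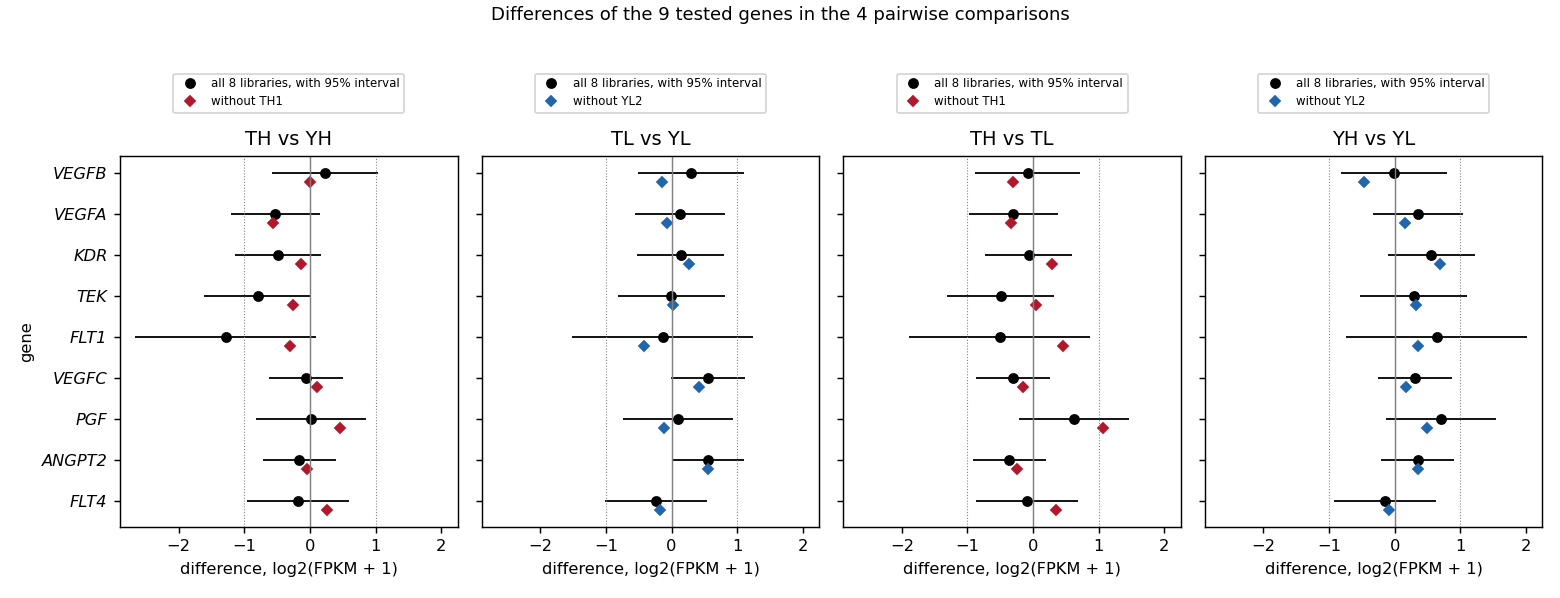
Differences in log2(FPKM + 1) for the 9 tested genes in the 4 pairwise comparisons; black points and lines are the fit of all 8 libraries with its 95% interval, diamonds the value without TH1 (red) or YL2 (blue), and dotted lines mark -1 and 1. FLT1 and TEK move toward 0 in TH vs. YH without TH1, from -1.28 to -0.31 and from -0.79 to -0.26.

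Averaged over altitudes, no member was apart between the 4 Tibetan and the 4 Yorkshire libraries, whereas 8.03% of all genes were. FLT1 had the largest breed difference with all libraries, -0.71 (SE 0.41). Without TH1 it was -0.22, and the largest was then 0.32, for VEGFC. Averaged over breeds, PGF was the only member apart between altitudes, where 2.69% of all genes were apart in either direction. The interaction, the altitude difference in Tibetan pigs minus that in Yorkshire pigs, was negative for 8 of 9 members and for 50.5% of all genes, with medians of -0.63 and -0.01. FLT4 was the exception at 0.05. This sign was not particular to the members. Endothelial markers were negative for 14 of 15 (median -0.73), cardiomyocyte markers for 8 of 9 (-0.88), pericyte and smooth muscle markers for 8 of 10 (-0.75) and fibroblast markers for 7 of 8 (-0.55), while 4 of 5 atrial markers were positive. Without TH1 and YL2 the endothelial markers were negative for 14 of 15 (median -0.38). Cardiomyocyte markers were then negative for 6 of 9 (-0.48), and pericyte and smooth muscle markers for 7 of 10 (-0.22). Fibroblast markers were negative for 4 of 8 (median 0.04), so their sign rested on those libraries, and 3 of 5 atrial markers were positive. With all libraries ANGPT2, FLT1, KDR and TEK thus moved with the endothelial markers, and the part of these markers was not tested. Without TH1 the interaction was negative for 7 of 9 members and without YL2 for 7 of 9. With both left out it was negative for 5 of 9 members and 55% of all genes, with medians of -0.29 and -0.06. With all libraries the values were -1.15 for FLT1 (SE 0.82), -0.79 for TEK (SE 0.48), -0.71 for ANGPT2 (SE 0.33), -0.66 for VEGFA (SE 0.41), -0.63 for KDR (SE 0.39) and -0.61 for VEGFC (SE 0.34). None passed, and the lowest adjusted p was 0.491, for ANGPT2. With TH1 and YL2 both left out, the values were 0.11 for FLT1, -0.29 for TEK, -0.60 for ANGPT2, -0.50 for VEGFA (-0.31 without TL2 alone), -0.39 for KDR and -0.33 for VEGFC, and VEGFB, PGF and FLT4 were positive.

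Receptor RNA in whole heart depends on how many endothelial cells a sample holds, and fewer of these cells cannot be told apart from less RNA per cell. Of 20 listed endothelial markers, 15 were in the table, and all 15 passed the filter. Their summed level was 505.2 and 475.3 FPKM in the pools of TH, 449.4 and 460.4 in those of TL, 406.7 and 443 in those of YH, and 320.7 and 260 in those of YL. The YL libraries had the lowest sums and the Tibetan libraries the highest. The order differed in the mean of log2(FPKM + 1) over the same markers, which weighs the abundant ones less. There YH2 was highest at 4.46, and TH1 at 3.96 was below YH1 at 4.24. The most abundant of these markers were RAMP2 (a receptor-modifying protein, 61.17 to 167.9 FPKM), PECAM1 (35.73 to 96.78 FPKM), ENG (a TGF-beta co-receptor, 39.15 to 71.63 FPKM) and EGFL7 (a secreted vessel factor, 24.91 to 59.95 FPKM). In YH vs. YL all 15 had positive differences (median 0.49; 0.35 without YL2, with 14 of 15 positive) and 11 were apart, against 21.9% of all genes, so the markers moved with the members there. In TL vs. YL the median was 0.72 (0.46 without YL2), and 13 of 15 lay apart with TL above, against 23.8% of all genes. In TH vs. YH it was 0.08 (0.20 without TH1). None of the 15 was called in any comparison.

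TH1 split the endothelial markers. It was the highest library for 5 of the 15, RAMP2 and PECAM1 among them, and the lowest for 4. The low ones were VWF with the value given above, EMCN at 6.723 FPKM against 13.8 to 26.43, ESAM at 3.946 against 4.552 to 10.77, and CLEC14A at 9.891 against 13.3 to 28.09 FPKM. FLT1, KDR and TEK lay with this low group in TH1. Pericyte and smooth muscle markers split in TH1 too. It was the highest library for 4 of 10 (KCNJ8, CNN1, TAGLN and PDGFRB) and the lowest for 2, among them RGS5 at 13.49 FPKM against 22.46 to 90.94 FPKM.

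Set against the endothelial markers, FLT1 and TEK were apart between breeds, although their own levels overlapped. The markers themselves had a median breed effect of 0.45, with 10 of 15 higher in Tibetan pigs. Of the 15, 9 had an unadjusted p under 0.05 by limma in either direction, against 13.5% of all genes. These scales therefore cannot tell lower receptor RNA from higher marker RNA. Per 100 FPKM of the summed markers, FLT1 was 0.273 to 1.72 in the 4 Tibetan libraries and 1.91 to 2.64 in the 4 Yorkshire libraries. TEK was 0.732 to 1.99 and 2.38 to 3.42. KDR overlapped slightly, at 1.73 to 3.15 and 3.08 to 4.57, and FLT4 overlapped. Of all genes, 17.1% lay lower without overlap in Tibetan libraries on this scale. With the mean of log2(FPKM + 1) over the 15 markers subtracted, FLT1 was -2.71 to -1.21 in Tibetan and -1.06 to -0.69 in Yorkshire libraries. TEK was -1.73 to -0.94 and -0.93 to -0.33, with almost no gap, and 7.62% of all genes were apart in this direction. These scales have no test here, and the second was chosen after the data were seen.

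**Figure D4:**
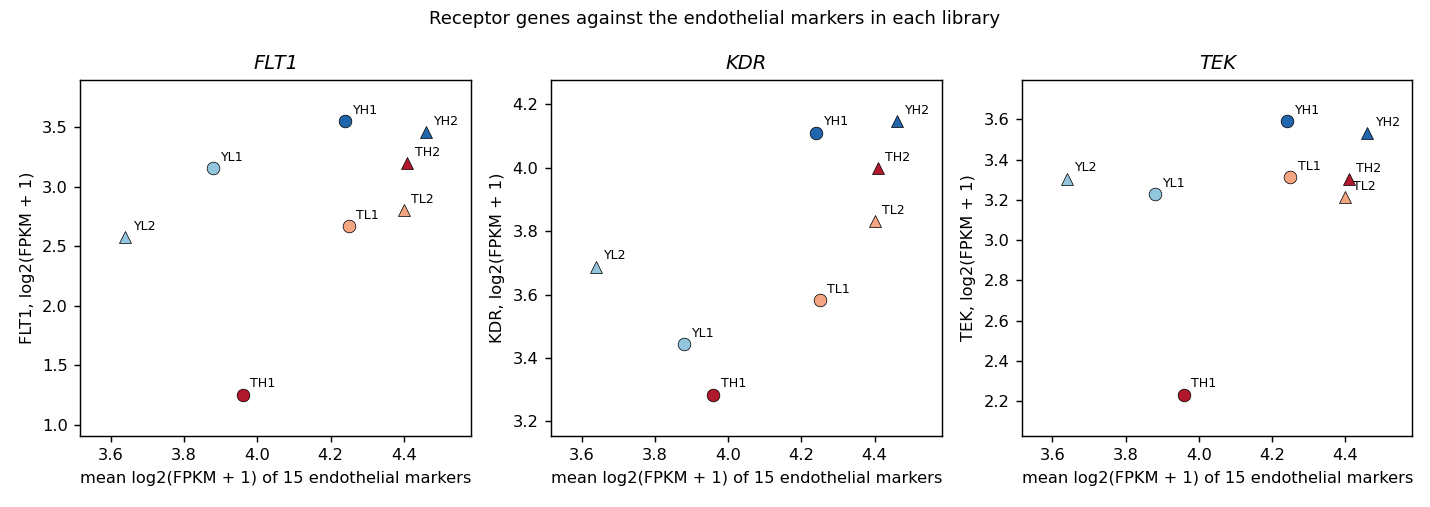
Levels of FLT1, KDR and TEK in log2(FPKM + 1) against the mean log2(FPKM + 1) of 15 endothelial markers, with 1 point per library, labelled and coloured by group. For FLT1 the YH libraries lie above Tibetan libraries with similar marker levels. The YL libraries have the lowest marker levels, with only TH1 near them, and TH1 lies lowest in each panel.

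Other genes around these receptors were counted by lists, which overlap in a few genes. Of 21 co-receptors and regulators 18 were in the table and 16 were tested, with 0 calls. Their median was 0.41 in YH vs. YL, with 14 of 16 positive (0.31 without YL2), and -0.02 in TH vs. YH (0.41 without TH1). The most abundant were GPC1 (a heparan sulphate proteoglycan, 19.93 to 113.7 FPKM) and the integrins ITGB1 (50.14 to 152.2 FPKM), ITGAV (16.76 to 59.32 FPKM) and ITGA5. ITGA5 was 2151 FPKM in YH2 and 27.14 to 202.4 FPKM in the other 7 libraries.

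FIGF (VEGFD), a ligand of the family that is not among the members, was singled out after its values were seen. It was 1.724 and 3.032 FPKM in the pools of TH, 2.3 and 3.231 in those of TL, 5.065 and 4.76 in those of YH, and 4.359 and 3.8 in those of YL. All 4 Yorkshire libraries were above all 4 Tibetan libraries, and 8.03% of all genes were apart between breeds in either direction. The TH to YH difference was -0.83 (SE 0.26), with an adjusted p of 0.215, and was -0.55 without TH1. NRP1, a VEGF co-receptor, was 11.89 FPKM in YL2 and 18.17 to 36.82 FPKM elsewhere.

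Of 57 genes for signal transduction from these receptors, 45 were tested and 0 were called. Their pairwise medians ran from -0.10 in TH vs. YH (0.09 without TH1) to 0.16 in YH vs. YL (0.09 without YL2). The most abundant were the small GTPases RAC1 (92.14 to 131.3 FPKM) and CDC42 (66.29 to 97.78 FPKM), and the kinases MAPKAPK2 and MAP2K2. In TH vs. YH 9 of 45 had an unadjusted p under 0.05, against 16.2% of all genes.

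Of 25 endothelial genes known to respond to VEGF or Notch, 19 were tested and 0 were called. The median was 0.51 in TL vs. YL and 0.49 in YH vs. YL, with 18 of 19 positive in each, and without YL2 it was 0.37 and 0.19, with 15 of 19. It was -0.12 in TH vs. YH (0.08 without TH1). Both positive comparisons share the YL libraries, and YL2 was the lowest library for 13 of the 19. The most abundant were RCAN1, a calcineurin inhibitor, at 11.85 FPKM in YL2 and 27.63 to 73.06 FPKM elsewhere, NID2, HEY2 and PDGFB.

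Of 19 secreted proteins that inhibit or bind VEGF, 15 were tested and 0 were called. The breed effect had a median of 0.57, with 12 of 15 positive, and 6 had an unadjusted p under 0.05, against 13.5% of all genes. Markers of several other cell types moved the same way in the breed effect. Their medians were 0.81 for fibroblast (7 of 8 positive), 0.75 for pericyte and smooth muscle (8 of 10) and 1.35 for atrial genes (5 of 5). Endothelial markers had a median of 0.45 (10 of 15) and cardiomyocyte markers 0.21 (7 of 9). Lymphatic endothelial markers went the other way, with a median of -0.30 and 5 of 5 negative. The part of cell makeup was not tested. The most abundant of the secreted proteins were DCN, a matrix proteoglycan that is also on the fibroblast list (72.41 to 265.9 FPKM), and the matricellular genes CTGF (28.06 to 191.7 FPKM), SPARC (19.6 to 187.1 FPKM) and CYR61. CYR61 was 178.4 and 170.2 FPKM in the pools of TH, 95.94 and 65.29 in those of TL, 30.6 and 43.9 in those of YH, and 28.13 and 22.99 in those of YL. Its TH to YH difference of 2.22 had an adjusted p of 0.0487. Its breed difference was 1.91 (adjusted p = 0.0232 by limma) and that of CTGF 2.07 (adjusted p = 0.0332), and these too were short of the threshold of 0.01.

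Of 32 HIF subunits and genes induced with VEGFA by HIF, 28 were tested and 0 were called. Their medians lay between -0.10 and 0.08 in all 7 comparisons, and the altitude effect had a median of -0.03 with 13 of 28 positive. Over the same comparisons without TH1, YL2 or both, they lay between -0.12 and 0.09. The most abundant were PGK1, a glycolytic enzyme (169 to 264.6 FPKM), BNIP3, a mitophagy receptor (43.28 to 110.6 FPKM), EPAS1, the HIF-2 alpha subunit (37.74 to 64.55 FPKM), and EGLN3, an oxygen-sensing hydroxylase (29.15 to 81.2 FPKM). Pericyte and smooth muscle markers had a median of 0.79 in YH vs. YL and 0.97 in TL vs. YL, with 10 of 10 positive in both (0.47 and 0.73 without YL2), and 0 were called. Cardiomyocyte markers had medians of 0.31 in YH vs. YL and 0.69 in TL vs. YL, which came to -0.31 and 0.07 without YL2, and -0.13 in TH vs. YH (-0.40 without TH1), with 0 calls. Fibroblast markers, led by DCN, COL1A1, DPT and COL1A2, had a median of 0.98 in TL vs. YL and 0.42 in YH vs. YL (1.28 and 0.29 without YL2), with 0 calls. Blood cell markers had 0 calls, and their sum, nearly all of it the haemoglobin genes HBB and HBA ahead of CD68 and CD3E, was 3109 FPKM in TH1 and 535.7 to 1638 FPKM elsewhere. Lymphatic endothelial markers, which bear on FLT4, had 5 tested genes and 0 calls, and all 5 were negative in TH vs. YH with a median of -0.57 (4 of 5 and -0.27 without TH1). CCL21, PDPN, LYVE1 and PROX1 were the most abundant of them.

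The genes whose levels followed a member most closely over the 8 libraries were taken from 6501 tested genes with a mean of at least 5 FPKM, by Pearson's r of log2(FPKM + 1). These correlations are descriptions, since the 8 points share libraries, depth and tissue makeup. For FLT1 they were GPR116, an adhesion receptor of endothelial cells (r = 0.985; 0.951 without TH1), a gene known only as ENSSSCG00000027716, and TAPBP (r = 0.975). GPR116 had the same order of libraries as FLT1, with a Spearman's rho of 1. For TEK they were EXOC5, ECE1 and TBC1D23, with r of 0.978 to 0.989 that came to 0.775 to 0.89 without TH1.

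For KDR the closest were ENSSSCG00000020860, which has no symbol (r = 0.941), CYTH1 (r = 0.939) and LAPTM5, a leukocyte membrane protein (r = 0.934). For VEGFA they were TMEM204, PATL1 and RAB9B (r = 0.903 to 0.941). For VEGFB they were NDUFA5 (r = 0.988) and UQCRQ (r = 0.972), subunits of respiratory complexes I and III, and GYPC (r = 0.967), and these values moved little without TH1 or YL2. For ANGPT2 they were SH2D3C (r = 0.918) and ENSSSCG00000029487 and ENSSSCG00000005042, without symbols (r = 0.902 and 0.901). VEGFC, PGF and FLT4 were not searched in this way.

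For ANGPT1 they were FBP1, GATM and SLC16A12 (r = 0.995 to 0.996). Without YL2 these came to 0.603, 0.528 and 0.026, so the likeness rested on that library. FBP1 is a gluconeogenic enzyme of kidney and liver, and GATM makes the precursor of creatine in kidney.

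**Figure D5:**
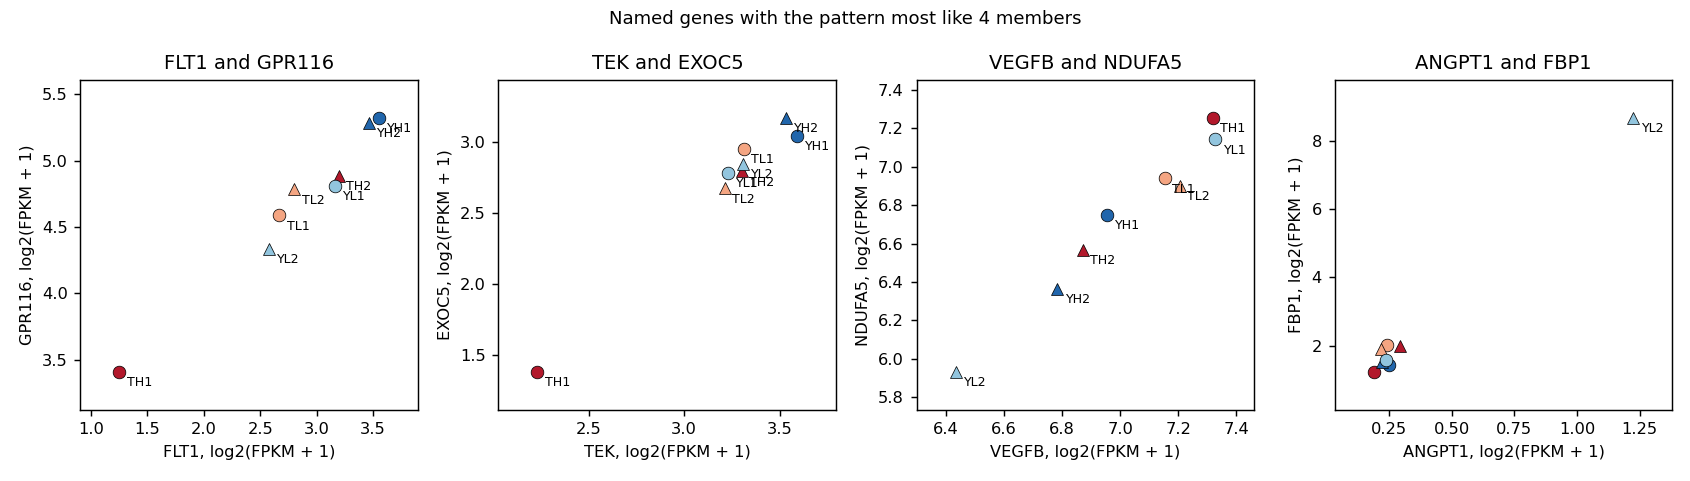
Level of the closest named gene against that of the member in log2(FPKM + 1), for FLT1 and GPR116, TEK and EXOC5, VEGFB and NDUFA5, and ANGPT1 and FBP1; each point is 1 library, coloured by group, and in the last panel only YL2 is labelled. TH1 lies far from the rest for FLT1 and TEK, YL2 for ANGPT1, and the VEGFB points are spread along a line.

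Among the members themselves, VEGFC and ANGPT2 were the closest pair that did not rest on TH1 or YL2, with r of 0.92 over 8 libraries and 0.91 without both. FLT1 and TEK had r of 0.94, which was 0.72 without TH1, and FLT1 and KDR had 0.79 and 0.67. VEGFA and VEGFB had r of 0.21. VEGFB ran against KDR, with r of -0.53 over all 8 libraries and -0.90 over the 6 without TH1 and YL2. The pairs named here were picked from all pairs of members after the values were seen.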

How the data were processed

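RNA-seq was measured in 8 libraries of heart, 2 per group, each of RNA pooled from 4 pigs. Per the labels and the study's methods, the authors aligned paired-end reads to Sscrofa10.2 with TopHat (version 2.0.9), computed FPKM with Cufflinks and compared groups with DESeq (1.10.1). The deposited table gives FPKM and a signal per library, named a count, that the authors had scaled by 1 factor per library. Dividing it by the smallest step of its library gave whole numbers (within 0.1 of a step) for 99.75% to 99.9% of low values. Fragment numbers were obtained in this way, and their precision is that of counting only. Fragments per FPKM of a member, relative to the median library of that gene, ran from 0.77 to 1.22. Another 8 columns, group means and ratios made by the authors, were not used, nor were separate tables of each group that hold the same values. Groups were taken from sample titles. The descriptions of YL1 and YL2 name a TL table, in conflict with their titles.

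Limma (version 3.58.1, R 4.3.3) was run on log2(FPKM + 1), all 8 libraries together, with a term per group and a mean-variance trend, for 11913 genes that reached 1 FPKM in 2 or more libraries. Such fold changes understate those of low genes. P-values were adjusted by Benjamini-Hochberg over all genes tested. With 2 pools per group, p-values measure the spread between pools. Genes were "apart" when every library of a group was above every library of the other. The members and lists were chosen with earlier results of these data known. All members were named, with the 4 genes of highest mean FPKM in each list, any called gene and the 3 genes most like each of FLT1, KDR, TEK, VEGFA, VEGFB, ANGPT1 and ANGPT2; FIGF, NRP1, PDGFRB, PTPRC, ITGAM and markers low in TH1 were singled out after their values were seen. The table named 14256 genes, a list of gene names added 1025, and 3694 IDs had no symbol. The fit was tested on simulated data. Alternatives were a pseudocount of 0.1, other filters and scalings, moderation without a trend, a replicate block, subsets of libraries and another threshold. Tables and figures were made with Python 3.11.15, pandas 2.3.3, numpy 2.4.6, scipy 1.17.1 and matplotlib 3.10.9.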

Additional observations from a re-analysis of the deposited data

Results flagged for a closer look

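ANGPT2 had altitude differences of opposite sign in the breeds, with no overlap between altitudes within either breed. Of all genes, 48.5% were apart in TH vs. TL and 36.3% in YH vs. YL, in either direction. The share apart in both with opposite signs was not counted. Both TH libraries (1.24 and 1.643 FPKM) were below both TL libraries (1.807 and 2.453 FPKM), and both YH libraries (1.379 and 2.095 FPKM) were above both YL libraries (1.114 and 1.12 FPKM). The interaction was -0.71 on the log2 scale (SE 0.33), with an adjusted p of 0.491 by limma, so the difference between the breeds did not pass the test. It ranged from -1.10 to -0.52 over the alternatives. The median interaction of 15 endothelial markers was of similar size, -0.73, with 14 of 15 negative, and its part in the ANGPT2 value was not tested. Groups of 2 libraries were too small to test for a single outlying sample within a group. Fits without each single library are part of the alternatives given above.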

How the results depend on the processing

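No member was called under any of the alternatives (1121 tests, with ANGPT1 where no filter was used; lowest adjusted p 0.0419, for FLT1 and TEK in TH vs. YH without TH2, which left TH1 alone in its group). Of 1114 alternative member differences, 100 changed sign. With libraries scaled to an equal FPKM sum of 1000000, 12 did, and the median of all genes shifted to -0.59 in TH vs. YH, -0.24 in TL vs. YL, -0.33 in TH vs. TL and 0.03 in YH vs. YL. VEGFB then had a breed difference of -0.38, against a shift of -0.43. Median-ratio scaling shifted it to -0.13 in TH vs. YH.

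Counts of calls over all genes were 4 in TH vs. YH, 1 in TL vs. YL, 6 in TH vs. TL, 0 in YH vs. YL (with 711 genes at an unadjusted p under 0.05), 6 for breed, 4 for altitude and 4 for the interaction. In the same order, the FPKM sum gave 38, 48, 28, 28, 56, 31 and 32. An adjusted p under 0.05 gave 31 in TH vs. YH, 12 in TH vs. TL and 54 for breed. Scaled counts in place of FPKM, an alternative chosen after seeing the data, gave 0 in all 7 by limma, with 861 to 2027 of 13674 genes at an unadjusted p under 0.05. Only the 4 libraries compared gave 2 in TL vs. YL and 11 in TH vs. TL. A pseudocount of 0.1 gave 1 in YH vs. YL, and a mean of at least 10 FPKM gave 10 for breed. TH1 and YL2 left out together, also chosen after seeing the data, gave 6 in TL vs. YL, 10 for breed, 8 for altitude and 9 for the interaction. Leaving out 1 library gave 1 to 305 calls in TL vs. YL, 4 to 13 in TH vs. TL, 0 to 305 in YH vs. YL, 4 to 227 for breed, 4 to 166 for altitude and 4 to 152 for the interaction. The highest counts came without YL1, which left YL2 alone in its group, assumed to vary like the others; without YL1 or YL2, TH vs. TL had 13. The cause of the other changes was not tested.

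A replicate block gave 3, 1, 4, 0, 5, 4 and 4 calls. The deviations of library 1 from its group mean correlated between groups at -0.084 to 0.118, so the numbers were not taken to pair libraries. Count models (edgeR and DESeq2) were not run, because the scaled counts were not all whole. Depth limits ANGPT1, FLT4 in TH1 and PGF most.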
